A study of Homo sapiens with 6 samples.

Results

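The genes described here were the autosomal protein-coding collagen, laminin and integrin genes, and the data were regions of chromatin recovered with CRLM1, a long noncoding RNA whose gene is LINC01767 in the annotation. Members were chosen by gene symbol from GENCODE release 44: symbols of the form COL, number, A, number for collagen chains, LAMA, LAMB or LAMC with a number for laminin chains, and ITGA or ITGB with a number or letters for integrin subunits. The rule gave 80 of 19111 autosomal protein-coding genes, of which 42 were collagen, 12 laminin and 26 integrin genes. It used no measured value, but earlier results of these data were known when it was set. All libraries came from HCT116, an established human colorectal carcinoma cell line, and there were 3 groups of 2 replicates: chromatin pulled down with antisense oligos to CRLM1, chromatin pulled down with antisense oligos to bacterial LacZ, and unselected genomic DNA (Input). The assay was chromatin isolation by RNA purification with sequencing (ChIRP-seq), in which crosslinked and sheared chromatin is captured through biotinylated DNA probes that hybridise to an RNA. The values were 4 lists of peaks, 1 for each CRLM1 pull-down replicate against Input and 1 for each against LacZ of the same replicate number. Each peak had a start, an end and a score.

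Collagens are the triple-helical proteins of the extracellular matrix, laminins are the cross-shaped heterotrimers that organise basement membranes, and integrins are the heterodimeric receptors through which cells hold on to both. An epithelial cell rests on a basement membrane of laminin and collagen IV and reads it through integrins at hemidesmosomes and focal adhesions. Loss or remodelling of these contacts is a known part of invasion and metastasis in colorectal cancer, which is the setting in which CRLM1 was studied. The question asked of the lists was which of these genes held regions recovered with CRLM1, how often, and where in the gene.

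Of the 80 genes, 47 held a peak in at least 1 list, against 36.1% of all autosomal protein-coding genes. No peak in these genes overlapped between the replicates, and few did in other genes (0.927% of replicate 1 peaks against Input and 0.0374% against LacZ). These are long genes, and non-member genes of like length, taken from the same of 20 bins of gene length, would have given 48.3 genes with a peak. The collagens contributed 23 of the 47, the laminins 10 and the integrins 14. In replicate 2 against Input, the list with the most peaks, the highest score in these genes was 95.07, in COL24A1, a fibril-forming collagen. The gene with the most peaks was COL25A1, a transmembrane collagen, with 10.

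The sequences below were taken from 4 of the genes with the highest-scored intronic peaks, because these peaks carried some of the highest scores in these genes within their own lists. The deposited scores were ranked over the lists for this choice alone. Each is the 200-base stretch of the peak with the most occurrences of CCTCCC or its reverse complement GGGAGG, on the plus strand of GRCh38. Capitals mark those letters. The stretches are chr1:86097381-86097580 in COL24A1, chr1:103056476-103056675 in COL11A1, chr6:129058124-129058323 in LAMA2 and chr6:70189618-70189817 in COL19A1.
COL24A1: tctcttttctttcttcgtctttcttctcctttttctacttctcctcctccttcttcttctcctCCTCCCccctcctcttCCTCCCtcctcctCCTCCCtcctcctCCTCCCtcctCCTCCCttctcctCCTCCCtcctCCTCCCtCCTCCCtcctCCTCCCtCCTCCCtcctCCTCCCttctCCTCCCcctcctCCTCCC
COL11A1: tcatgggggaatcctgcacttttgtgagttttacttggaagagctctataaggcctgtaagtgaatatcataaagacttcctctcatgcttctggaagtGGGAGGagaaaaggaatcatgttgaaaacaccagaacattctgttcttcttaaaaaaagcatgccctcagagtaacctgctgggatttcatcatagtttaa
LAMA2: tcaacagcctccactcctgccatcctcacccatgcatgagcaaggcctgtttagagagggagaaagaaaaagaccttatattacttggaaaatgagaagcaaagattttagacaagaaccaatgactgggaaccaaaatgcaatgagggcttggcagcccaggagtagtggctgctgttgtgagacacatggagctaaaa
COL19A1: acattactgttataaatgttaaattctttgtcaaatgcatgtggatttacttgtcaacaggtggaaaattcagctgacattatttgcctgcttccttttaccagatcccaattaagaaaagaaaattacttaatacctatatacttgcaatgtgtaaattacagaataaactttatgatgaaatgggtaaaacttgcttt
The COL24A1 stretch was rich in pyrimidines and held the letters 13 times. The COL11A1 stretch held them 1 time, and LAMA2 and COL19A1 held none. The GC content of these stretches ran from 29.5% in COL19A1 to 60% in COL24A1. The stretches were chosen for the motif, and the whole peaks had 29.3% in COL19A1 and 40.4% in COL24A1.

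In the CRLM1 locus itself each list held 1 peak, with scores of 1008.27 and 1466.89 in replicate 1 against Input and LacZ and 1580.45 and 935.57 in replicate 2. The DNA of these peaks holds a whole probe sequence of 59 bases. Whether it was captured through the RNA or by the probes directly was not tested. No peak in a collagen, laminin or integrin gene reached a score of 100. The lists held 9251 and 10234 autosomal peaks in replicate 1 against Input and LacZ, and 16638 and 361 in replicate 2. The read depth of the libraries is unknown, and no source used here gives the scale of the score, so scores were compared only within a list, apart from the choice of sequences above. Nothing in the labels says that the replicates were separate cultures.

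In replicate 1 against Input, 19 of the 80 genes held a peak, which is 23.8% (95% exact binomial interval 14.9 to 34.6) beside 13.6% of all genes and 28.1% of non-member genes of like length. Against LacZ in the same replicate, 25 genes did, or 31.2% (21.3 to 42.6), beside 21.0% of all genes and 36.6% of genes of like length. In replicate 2 against Input, 29 genes did, or 36.2% (25.8 to 47.8), beside 23.0% and 42.8%. Against LacZ in replicate 2, none did, an upper limit of 4.51%, beside 1.07% of all genes and 2.13% of genes of like length. In every list the share was below that of genes of like length, by ratios of 0.846, 0.853 and 0.847 in the first 3 lists, and the binomial interval contained the like-length share each time. The intervals cover counting over genes only and are no test. Each share above the all-gene background was thus below the share at like length.

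**Figure D1:**
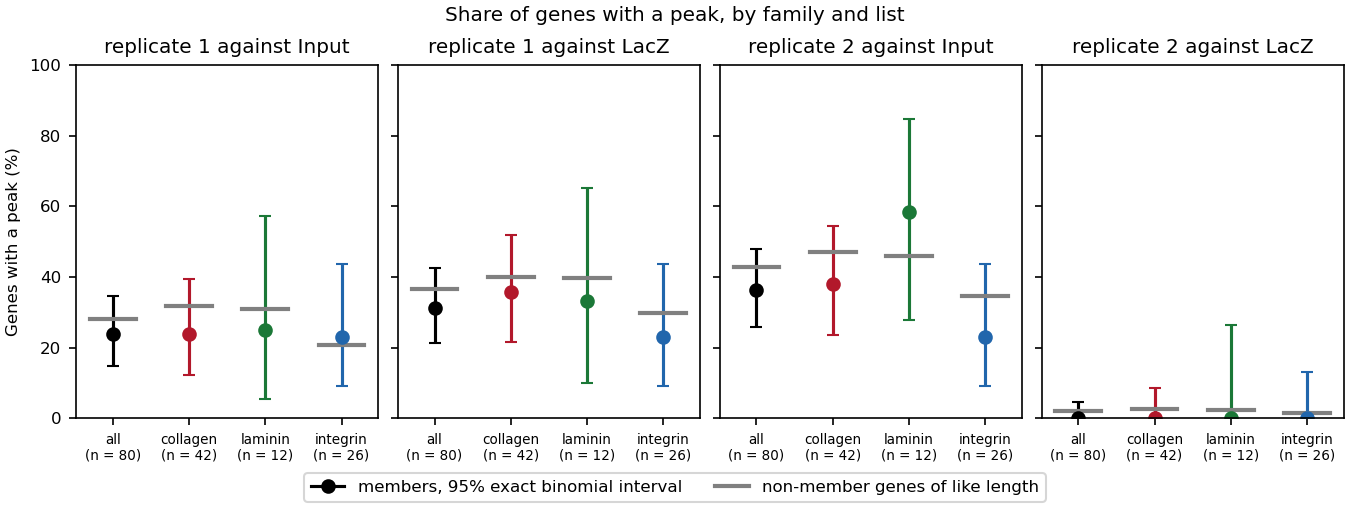
Share of genes with a peak (percent, vertical axis) in each of the 4 lists, for all 80 genes and for the collagen, laminin and integrin genes. Points show the members with 95% exact binomial intervals and grey lines the share among non-member genes of like length. The points for all members lie below the grey lines in every panel, and the intervals contain them.

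Among the families, the collagens were below genes of like length in each list: 10 genes against 13.4 in replicate 1 against Input, 15 against 16.8 for LacZ, and 16 against 19.7 in replicate 2 against Input. The integrins held a peak in 6 of 26 genes in each of these 3 lists, where like length gave 5.38, 7.77 and 9.02. The laminins held a peak in 3, 4 and 7 of 12 genes, where like length gave 3.71, 4.76 and 5.50. Over all lists together, 10 of the 12 laminin genes held a peak (83.3%, interval 51.6 to 97.9), beside 64.5% of genes of like length. With 12 genes the interval is wide and includes the like-length share.

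Counted per megabase, peaks were also fewer than in other genes. The 80 genes with their upstream windows spanned 10.55 Mb and held 2.27, 3.22 and 5.40 peaks per Mb in the first 3 lists, beside 3.15, 4.11 and 5.83 in the other protein-coding genes. The ratios were 0.722, 0.784 and 0.927. By family, the ratio in replicate 2 against Input was 0.947 for collagens, 1.02 for laminins and 0.796 for integrins. The integrins had a ratio of 0.615 in replicate 1 against LacZ, the lowest of their first 3 lists.

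Gene length went with the number of peaks inside the gene set as it did outside it. The median length was 88.7 kb for the 80 genes and 27.7 kb for the other genes. Members with a peak had a median length of 139 kb and those without one 38.4 kb. Of 25 members under 50 kb, 6 held a peak (24.0%, beside 18.4% of non-members under 50 kb). Of 29 members of 50 to 150 kb, 19 did (65.5%, beside 60.9%), and of 26 members over 150 kb, 22 did (84.6%, beside 89.8%). These classes are broader than the length bins used above, and lengths can differ within a class. The shortest member was 12.0 kb and the shortest non-member 0.039 kb. Across the 80 genes Spearman's rho between length and number of peaks was 0.46, 0.45 and 0.61 in the first 3 lists, beside 0.45, 0.43 and 0.52 across the 19031 other genes. These are correlations across genes within a list, and genes that share a library are not replicates.

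**Figure D2:**
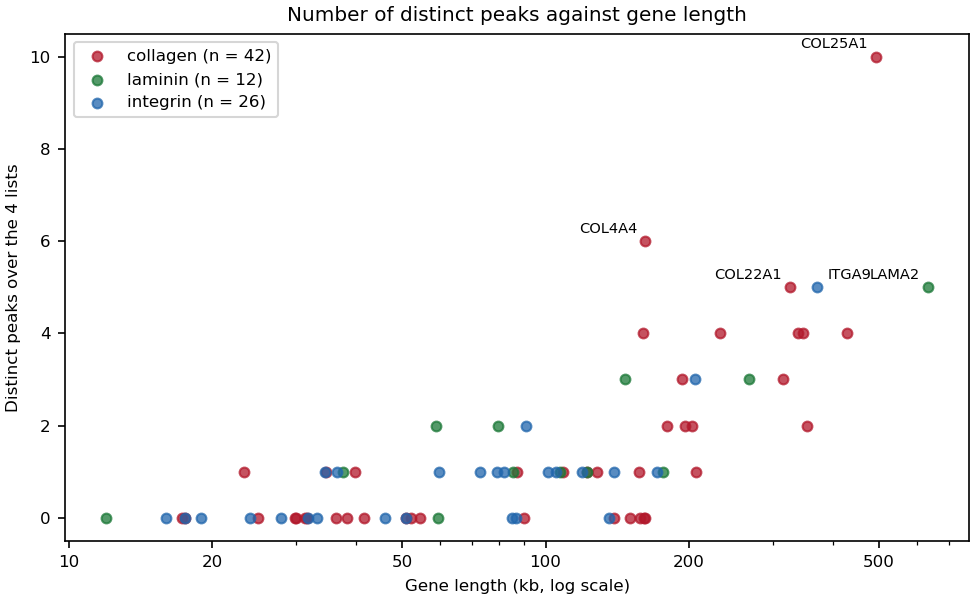
Number of distinct peaks over the 4 lists (vertical axis) against gene length in kb (horizontal axis, log scale) for the 42 collagen, 12 laminin and 26 integrin genes, 1 point per gene. The 5 genes with 5 or more distinct peaks are named. The 15 genes with 3 or more peaks are all 147 kb or longer.

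A peak in both replicates against Input was found in 9 genes: COL11A1, COL14A1, COL21A1, COL23A1, COL24A1, COL25A1, LAMA2, LAMA4 and ITGA8. That is 11.2% of the members, beside 8.26% of all genes, and genes of like length would have given 15.4 genes. No gene held a peak in both replicates against LacZ, beside 0.586% of all genes. Either control allowed, 16 genes held a peak in both replicates (20%, beside 11.7% of all genes and 26.2% of genes of like length), 18 in replicate 1 alone and 13 in replicate 2 alone. Beyond the 9 genes above, the set of 16 includes COL4A4, COL5A1, COL22A1, COL28A1, LAMA3 and ITGA9.

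Places were compared between the replicates as well as genes. None of the 24 peaks of replicate 1 against Input and none of the 34 against LacZ overlapped a peak of replicate 2 against the same control. In non-member genes 38 of 4101 peaks (0.927%) against Input and 2 of 5347 (0.0374%) against LacZ did, so the absence among so few peaks is near the background. Taking both controls together, the 48 distinct replicate 1 peaks in the 80 genes had a median gap of 62.4 kb to the nearest replicate 2 peak, beside 56.0 kb for peaks in other genes. A pair in intron 1 of COL4A4 lay 2.42 kb apart, and one in COL23A1 lay 10.8 kb apart. Gaps of up to 10 kb were found for 2 of the 48 peaks (4.17%), beside 12.3% in other genes, and gaps of up to 50 kb for 14 (29.2%), beside 46.4%.

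**Figure D3:**
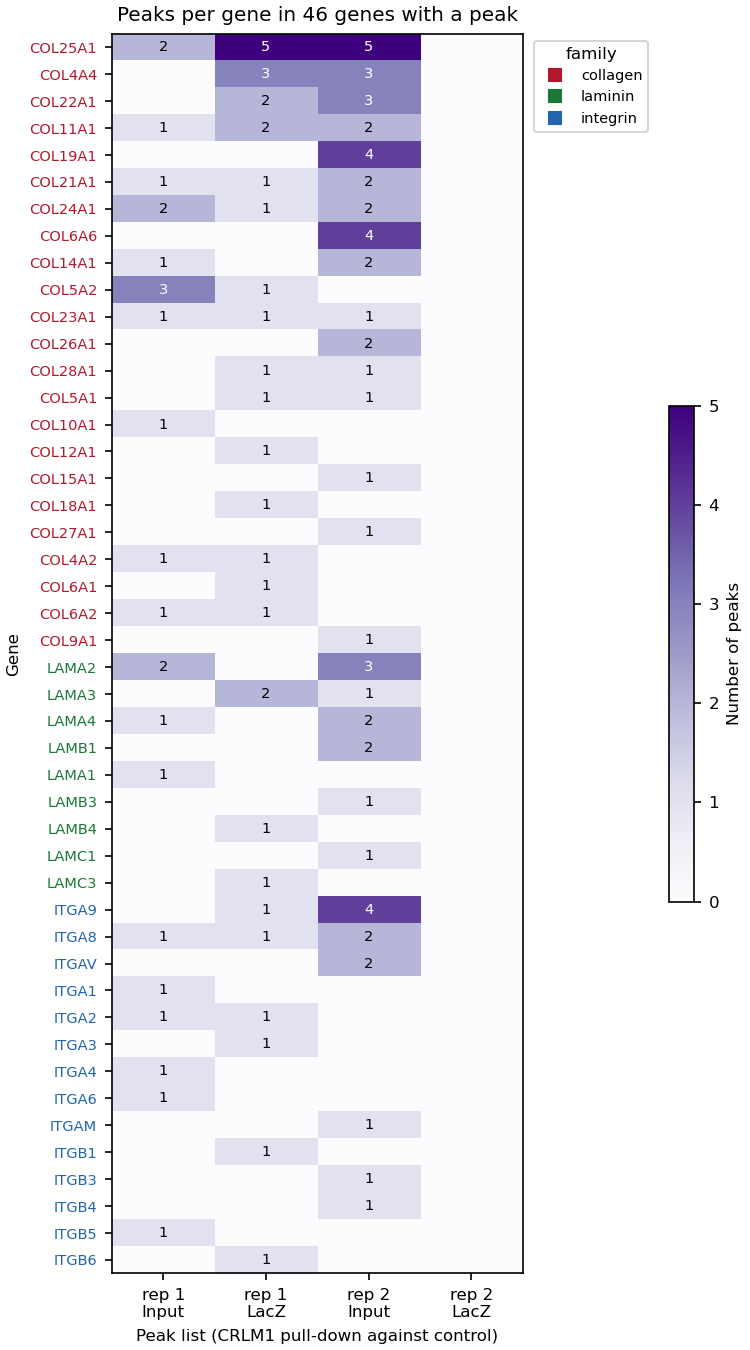
Number of peaks (colour and digits) in 46 of the genes with a peak (rows, coloured by family) in each of the 4 lists (columns). Of these genes 25 hold 1 distinct peak, the column for replicate 2 against LacZ is empty, and COL25A1 has 5 peaks in each of 2 lists.

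Altogether 105 distinct peaks lay in the 80 genes, 48 from replicate 1 and 57 from replicate 2, and no peak was shared by a pair of member genes. One distinct peak was found in 25 genes, 2 in 7 genes and 3 or more in 15 genes. In replicate 1, 10 of the distinct peaks were called over both Input and LacZ. They lay in COL4A2, COL5A2, COL6A2, COL11A1, COL23A1, COL24A1, COL25A1 (2 peaks), ITGA2 and ITGA8, and no laminin gene was among them. They made up 41.7% of the replicate 1 peaks against Input, beside 51.5% in other genes, and 29.4% of those against LacZ, beside 39.5%. In replicate 2 none of the 57 peaks against Input was called over LacZ as well, beside 2.48% in other genes.

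Fibril-forming collagens assemble into the striated fibrils of connective tissue, and 5 of these 11 genes held a peak where like length gave 6.16. COL24A1 (chr1, 428 kb, 60 exons) held 4. The higher of its 2 in replicate 2 against Input, in intron 5, scored 95.07. A peak in intron 28 scored 64.29 against Input and 66.01 against LacZ in replicate 1, and was thus called over both controls. The other 2 peaks scored 52.18 in replicate 1 and 52.16 in replicate 2, both against Input. The 2 peaks nearest to each other across replicates, both in intron 5, were 14.4 kb apart.

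COL11A1 (232 kb), the type XI chain found in cartilage and raised in the stroma of many carcinomas, held 4 peaks. The one in intron 4, at chr1:103056315-103056837, had a score of 81.3 in replicate 1 against each control. In replicate 2 the peaks were elsewhere, in introns 36 (76.34) and 57 (59.33). A further replicate 1 peak, called against LacZ alone with a score of 56.35, was centred 1.53 kb before the gene start. COL5A2, a type V chain that regulates fibril width, held 3 peaks, all in intron 1 and all from replicate 1, with scores of 54.41, 53.03 and 51.34 against Input. The middle one scored 50.97 against LacZ. COL5A1 held 1 peak in each replicate (55.47 and 62.89), and COL27A1 held 1 in replicate 2 (62.33). The major collagens of stroma, COL1A1, COL1A2 and COL3A1, held no peak, nor did the cartilage collagen COL2A1, COL5A3 or COL11A2. The lengths of these genes without a peak ran from 17.5 kb (COL1A1) to 50.9 kb (COL5A3). Of genes of like length, 2% to 12.1% held a peak in replicate 1 against Input and 8.1% to 28.4% in replicate 2 against Input.

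Collagen IV forms the sheet-like network of basement membranes, and its genes lie in head-to-head pairs. In each autosomal pair 1 gene held peaks: COL4A2 but not COL4A1, and COL4A4 but not COL4A3. Like length gave 3.23 of these 4 genes. COL4A2 held 1, in intron 3, with scores of 50.95 and 50.93 in replicate 1 against Input and LacZ. COL4A4 (162 kb) held 6, the second highest number of the set. Of these, 3 came from replicate 1 against LacZ (50.12 to 53.25) and 3 from replicate 2 against Input (55.09 to 68.56). Of the 6, 3 lay in intron 1, at 5.13, 9.81 and 12.7 kb from the gene start, and they included both replicates. Of the other network-forming collagens, COL10A1 of hypertrophic cartilage held 1 peak, in its UTR (57.75, replicate 1 against Input), at a place where NT5DC1 overlaps it, and COL8A1 and COL8A2 held none.

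The FACIT collagens sit on the surface of fibrils and link them to other matrix, and 6 of 10 genes held a peak where like length gave 6.47. COL14A1 held the highest-scored of the member peaks in replicate 1 against Input, 83.85 in intron 24, and 2 peaks in intron 5 in replicate 2 (52.95 and 71.79). COL19A1 (346 kb) held 4 peaks, all in replicate 2 against Input, with scores of 52.6, 51.24, 65.5 and 79.84. COL22A1 held 5, with 65.42 and 51.15 in replicate 1 against LacZ and 55.94, 60.5 and 69.61 in replicate 2 against Input. COL21A1 held 4, with 51.89 against Input and 59.22 against LacZ in replicate 1 and 53.89 and 62.33 in replicate 2. COL12A1 held 1 peak, in coding exon 10 of 66, with a score of 50.84 in replicate 1 against LacZ. COL9A1 held 1 intronic peak (52.35, replicate 2). COL9A2, COL9A3, COL16A1 and COL20A1 held none.

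Transmembrane collagens are anchored in the cell membrane and shed their outer part, and 2 of 4 held peaks where like length gave 3.24. COL25A1 (494 kb), also known for its presence in amyloid plaques, held 10. In replicate 1, a peak in intron 3 at 217 kb from the start scored 58.48 against Input and 60.18 against LacZ. A second peak called over both controls was centred 4.45 kb before the start (51.19 and 58.91), inside the divergent transcript COL25A1-DT. Another 3 peaks against LacZ scored 50.76 to 53.67. The 5 peaks of replicate 2 against Input scored 50.41 to 61.82. COL23A1 (353 kb) held a peak in intron 2 with scores of 55.99 against Input and 80.77 against LacZ in replicate 1. Its replicate 2 peak, in intron 1, scored 50.55. COL13A1 and COL17A1, the collagen of hemidesmosomes, held none.

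Collagen VI makes the beaded microfibrils around cells, and 3 of 5 genes held peaks where like length gave 2.73. COL6A6 held 4, all in replicate 2 against Input, of which 3 lay in a cluster 38.6 to 43.6 kb from the start (58.59 to 65.16) and the last at 131 kb (52.35). COL6A1 held 1 (57.04, replicate 1 against LacZ). COL6A2 held 1 in intron 1, only 2.65 kb from the start, with scores of 63.93 and 66.05 in replicate 1 against Input and LacZ. Both multiplexin collagens, whose ends are cut to release angiogenesis inhibitors, held 1 where like length gave 1.46 genes: COL18A1 (54.00, replicate 1 against LacZ) and COL15A1 in its last coding exon, exon 42 (63.13, replicate 2 against Input). COL26A1 held 2 peaks in replicate 2 (55.64 and 78.87), COL28A1 held 1 in each replicate (54.85 and 55.65), and COL7A1 of anchoring fibrils held none. COL6A3 and COL6A5 held none either.

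**Figure D4:**
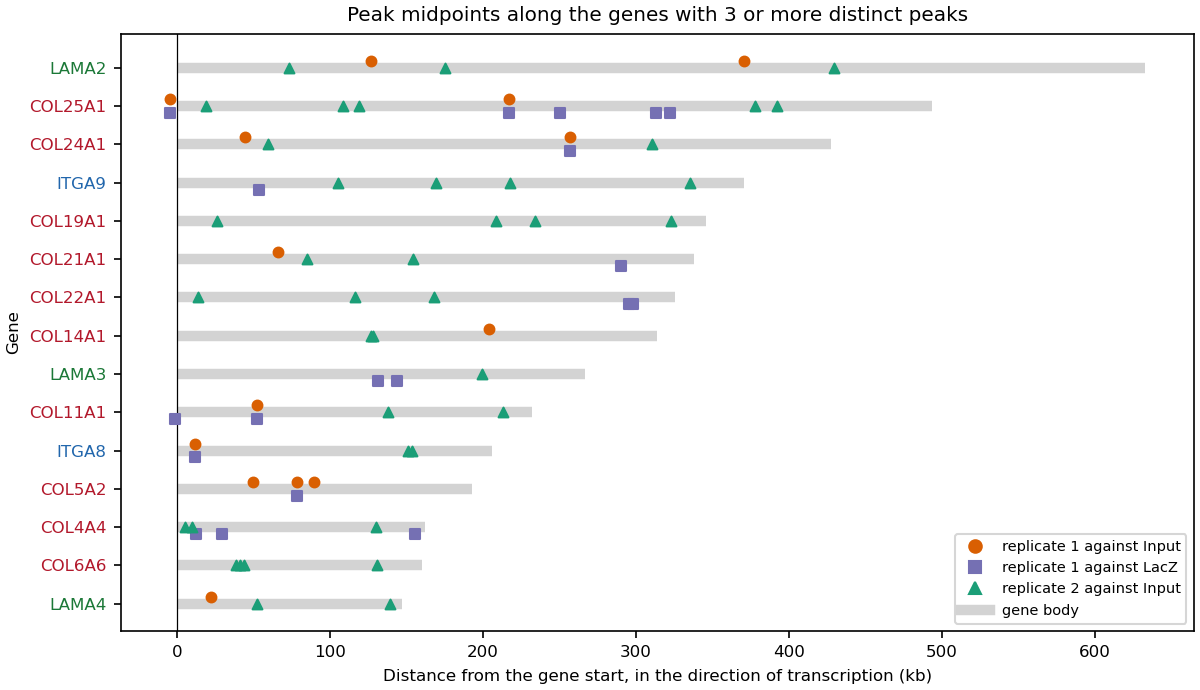
Midpoints of the peaks along the 15 genes with 3 or more distinct peaks, as distance from the gene start in kb in the direction of transcription. Grey bars are gene bodies, circles and squares are replicate 1 against Input and against LacZ, and triangles are replicate 2 against Input. No triangle marks the same region as a circle or square, although 1 of each lies close in COL4A4, while circles and squares coincide where a replicate 1 peak was called over both controls.

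Among the laminins, 4 of 5 alpha chains and 3 of 4 beta chains held a peak, where like length gave 4.06 and 1.79. LAMA2 (633 kb), the alpha chain of muscle basement membrane and the longest gene of the set, held 5. In replicate 1 against Input these were in introns 1 (60.73) and 14 (55.81), and in replicate 2 in introns 1 (53.42), 2 (80.21) and 22 (53.32). LAMA4, an alpha chain of vessel walls, held 1 peak in replicate 1 against Input (54.17, intron 2). In replicate 2 it held 2, at intron 4 (66.89) and coding exon 36 (54.51). LAMA1 held 1 peak in intron 1, 2.20 kb from the start (60.89, replicate 1 against Input).

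LAMA3 and LAMB3 encode chains of the laminin that epithelia deposit under hemidesmosomes. LAMA3 held 2 in replicate 1 against LacZ (70.65 and 50.93) and 1 in replicate 2 against Input (53.39). LAMB3 held 1 in replicate 2 against Input (55.53). The beta and gamma chains LAMB1 and LAMC1, which most other laminins share, held peaks in replicate 2 against Input alone: LAMB1 in intron 5 (64.93) and 4.68 kb before the start (50.87), and LAMC1 in intron 1 (60.75). LAMB4 (58.91) and LAMC3 (50.18) each held 1 in replicate 1 against LacZ. LAMA5 and LAMB2, at 59.4 kb and 12.0 kb, held none.

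Of the integrin genes, 9 of 18 alpha and 5 of 8 beta subunits held a peak. Like length gave 13.9 over all 26 and 4.24 for the beta subunits. ITGA8, the alpha subunit of a receptor for RGD-bearing ligands in kidney development, was the 1 integrin gene with a peak in both replicates against Input, where like length gave 3.06. Its replicate 1 peak, in intron 2 at 12.0 kb from the start, scored 54.68 against Input and 57.33 against LacZ. Its 2 replicate 2 peaks lay in intron 25 (52.46 and 62.21). ITGA9, a partner of integrin beta 1 that binds tenascin and osteopontin, held 5 peaks, the most of any integrin. One came from replicate 1 against LacZ (52.66) and 4 from replicate 2 against Input (50.92 to 60.65). The other RGD-binding subunit with peaks was ITGAV, with 2 in replicate 2 (55.47 and 54.64). Of the 4 RGD-binding alpha subunits 2 thus held a peak, where like length gave 1.96.

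Of the 4 collagen-binding alpha subunits 2 held a peak, where like length gave 2.55. These genes lie side by side on chromosome 5, and each held 1 peak. ITGA2, the subunit of the main epithelial collagen receptor, held it in intron 2, with scores of 61.27 and 59.44 in replicate 1 against Input and LacZ. ITGA1 held it in intron 9 (52.22, replicate 1 against Input). Of the 3 laminin-binding alpha subunits 2 held a peak, where like length gave 1.25. ITGA6, the alpha subunit of hemidesmosomes, held a peak centred 4.85 kb before the start (58.50, replicate 1 against Input). ITGA3 held one only 0.273 kb before the start (53.80, replicate 1 against LacZ), at a place that PICART1 overlaps. ITGB4, the beta partner of ITGA6, held 1 in intron 18 (52.54, replicate 2 against Input).

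The remaining integrins with a peak each held 1. ITGB1, the most widely shared beta subunit, held it in intron 1 (51.19, replicate 1 against LacZ). ITGB5 (50.42) and ITGA4 (53.98) held theirs in replicate 1 against Input, and ITGB6 (52.34), an epithelial subunit that activates TGF-beta, in replicate 1 against LacZ. ITGB3 (52.08) and ITGAM (65.39) held theirs in replicate 2 against Input. No peak was found in ITGA5, ITGA7, ITGA10, ITGA11, ITGA2B, ITGAD, ITGAE, ITGAL, ITGAX, ITGB2, ITGB7 or ITGB8. Of the 7 leukocyte, alpha 4 and alpha 9 subunits, 3 held a peak (ITGA4, ITGA9 and ITGAM), where like length gave 3.86. The beta partner of ITGAM, ITGB2, held none.

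Most peaks lay in introns: 21 of 24 in replicate 1 against Input, 30 of 34 against LacZ, and 54 of 57 in replicate 2 against Input (87.5%, 88.2% and 94.7%, beside 91.9%, 82.8% and 88.8% in other genes). The exceptions were the 5 peaks upstream of COL11A1, COL25A1, ITGA3, ITGA6 and LAMB1, the coding peaks of COL12A1, COL15A1 and LAMA4, and the UTR peak of COL10A1. Along the gene, the median position of the peaks in replicate 1 against Input was 25.2% of the length from the start, beside 50.9% in other genes. It was 48.7% and 43.3% in the next lists, beside 49.1% and 51.8%. These medians take only peaks centred in the gene body, 22 in the first list, and the difference was not tested.

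Scores lay near the floor of the lists, which started at 50. Their medians were 55.25, 54.42 and 55.94 in the first 3 lists, beside 55.95, 58.08 and 57.73 in other genes. A score of 60 or more was reached by 7 of 24, 7 of 34 and 23 of 57 peaks, that is by 29.2%, 20.6% and 40.4%, beside 33.2%, 41.9% and 39.9% in other genes. In replicate 1 against LacZ the share of such peaks was below that in other genes by the widest margin. Other genes held scores of 100 or more in 1.27%, 1.96% and 1.62% of peaks.

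**Figure D5:**
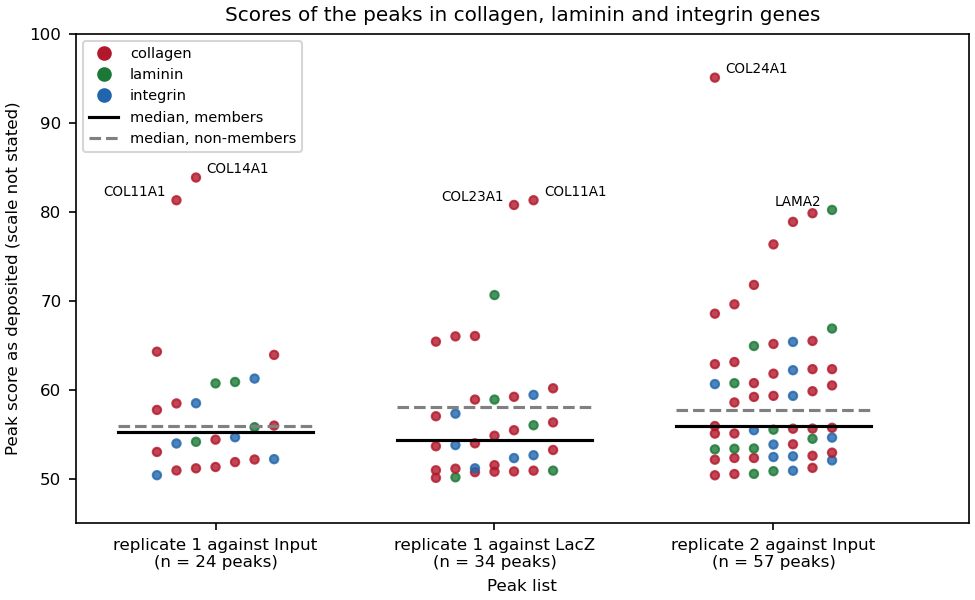
Peak scores as deposited (vertical axis, scale not stated and axis starting at 45) of the 24, 34 and 57 peaks in collagen, laminin and integrin genes in the 3 lists that held any, 1 point per peak coloured by family and spread sideways for visibility. Black lines are member medians, dashed grey lines those of other genes. The 2 highest peaks of each list are named, and no point reaches 100.

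Sequence features were set beside those of all peaks of the same list. The median GC content of the member peaks was 37.7%, 41.4% and 40.2%, beside 38.0%, 41.3% and 38.8% over all autosomal peaks. In the 300 bases around the midpoint, CCTCCC on either strand was found in 5, 8 and 15 peaks (20.8%, 23.5% and 26.3%, beside 24.0%, 33.0% and 26.8%). GAGAGAGA on either strand, which does not overlap that motif, was found in none of these midpoint windows, beside 3.85%, 4.02% and 3.98% of all peaks. The longest exact match of a peak to any of the 9 CRLM1 capture probes of 59 bases was 8 to 12 bases, with a median of 9 both here and over all peaks. The peak at the CRLM1 locus matched whole probes, 59 bases. In RefSeq promoter windows, from 250 bases before to 50 after a start, no list had a peak in the windows of the 56 member genes that were in the table, ITGA3 not among them, beside 0.0389%, 0.432%, 0.141% and 0.00486% of the windows of all protein-coding genes.

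The partners of these proteins were described from a list of 98 genes in 3 groups. In the first 3 lists 17, 30 and 29 of them held a peak, where like length gave 20.1, 28.2 and 31.9, and none did in replicate 2 against LacZ. Of 30 basement membrane and matrix glycoprotein genes, 7, 8 and 10 held a peak (like length 6.11, 8.72 and 9.81). Of 26 genes, mostly for collagen processing and collagen receptors, 5, 4 and 7 did (4.16, 6.33 and 7.04). This group also took in SGCD (897 kb), which held a peak in each of these lists. Of 42 genes for proteins linked to integrins inside the cell, 5, 18 and 12 did (9.78, 13.1 and 15.1). In both replicates against Input, 8 of the 98 held a peak where like length gave 12.6. They were FBN1 and FBN2, the fibrillins of microfibrils, NPNT, a ligand of the ITGA8 receptor, MATN2, TNR, the collagen receptor DDR2, the prolyl hydroxylase subunit P4HA1 and SGCD of the dystrophin complex. None of the 42 integrin-linked genes was among them, where like length gave 6.61.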

How the data were processed

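Libraries were grouped by the labels. The authors trimmed reads with cutadapt, aligned them to GRCh38 with Bowtie2 and called peaks with MACS in each replicate against its own control, without pooling. The deposited score of each peak comes from the caller. Its scale is not stated, and the release of the caller was not settled. For its own peak set, the study called CRLM1 and LacZ peaks each against Input and dropped CRLM1 peaks that overlapped LacZ peaks. That step was not repeated here, so peaks in the lists against Input may include places that LacZ probes also recover. The lists against LacZ have that pull-down as their control instead.

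Gene models were those of GENCODE release 44. A peak was assigned to a gene when at least 1 bp fell in its body or the 5 kb upstream, and to a feature by its midpoint. Genes of like length were the non-members in the same of 20 length bins. For peaks spread evenly per base, this choice would give ratios of 0.973, 0.982, 0.99 and 0.896 in the 4 lists. The counting was tested on simulated data. Tools were Python 3.11.15, pandas 2.3.3, numpy 2.4.6 and scipy 1.17.1 (exact Clopper-Pearson intervals). The lists hold no read counts, so no test was made and depth is unknown. Members, companion genes and subclasses were chosen with earlier results of these data known. Named genes were those with a peak in both replicates, with scores of 60 or more over both controls, with 1 of the 3 top peaks of a list, with 3 or more peaks, or with an upstream or coding peak, and the others were added for completeness. Alternatives covered the score, the upstream window, the overlap, the control, the length match and each replicate. Values of 1 gene and some peak sequences are not reported here.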

Additional observations from a re-analysis of the deposited data

How the results depend on the processing

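Of 131 values recomputed under the alternatives, 103 stayed within 1.5 times or within the counting interval and 28 moved. None was counted as reversed, although 1 ratio rose above 1, as given next. Results that were 0 at the main setting could not change under a stricter choice or another length match. They count among the 103 and say nothing about stability. Of 27 ratios to genes of like length in the 3 lists with peaks, 26 were under 1, over a range of 0 to 1.03, the exception being replicate 2 against Input at a score of 60 or more. With peaks at or above the median score of their list, genes with a peak fell to 10 in replicate 1 against Input, 10 against LacZ, 5 in both replicates against Input and 28 in any list. Distinct peaks were then 10, 11 and 28, and the ratio for replicate 1 against LacZ was 0.563. At a score of 60 or more, the genes were 7, 7, 4 and 25, the peaks 7, 7 and 23, and that ratio 0.454. With peaks called over both controls, 9 genes and 10 peaks were left in each list of replicate 1, 0 genes and 0 peaks in replicate 2 against Input (a ratio of 0), 0 genes in both replicates and 9 in any list. With 10 kb upstream, replicate 2 against LacZ gained 1 gene and 1 peak, COL26A1, at 9.96 kb (score 77.9). Genes with a peak in any list were 29 without replicate 1 and 34 without replicate 2.

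The cause of these moves was not tested. No paired analysis was possible because each list is already 1 replicate against its own control and holds no per-library values. The shares of the laminins rest on 12 genes. Replicate 2 against LacZ held 361 autosomal peaks, too few to show whether these genes differ from others there.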

Other observations

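Several genes with similar names fell outside the rule. On the X chromosome, COL4A5 held 1 peak in replicate 2 against Input (score 51.04), and its head-to-head neighbour COL4A6 held none. ITGBL1, an integrin-like secreted protein, held 2 peaks in replicate 1 against LacZ and 2 in replicate 2 against Input. ITGB3BP held 3 peaks and ITGB1BP1 held 1 (71.79), all in replicate 2 against Input, and ITGB1BP2 held none.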
